A study of Mus musculus with 10 samples.

Results

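Adipokines are proteins that fat tissue releases into the blood or to neighbouring cells. The 9 genes described here encode leptin (Lep), adiponectin (Adipoq), resistin (Retn), adipsin or complement factor D (Cfd), retinol binding protein 4 (Rbp4), nicotinamide phosphoribosyltransferase (Nampt), chemerin (Rarres2), apelin (Apln) and neuregulin 4 (Nrg4). They were chosen by name, as well-known secreted products of adipose tissue, and were found among 51826 genes listed in each file, 33120 of which had an exon length. Earlier results of these data were known at the time of choice, so counts set against the share of all genes are descriptions. All 9 passed the filter on low counts in every comparison.

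The data were RNA-seq of total RNA, depleted of ribosomal RNA, from inguinal white adipose tissue (iWAT), a fat depot under the skin of the groin, of 10 male C57BL/6 mice. The F0 mice received a control diet (CD, 2 mice) or a low-protein diet (LPD, 2 mice) from weaning and were killed at 10 to 12 weeks of age. The F1 mice were 5-week-old sons of fathers fed the CD (3 mice) or the LPD (3 mice, the pLPD offspring), and these sons and their mothers had only the CD. The study asked whether a father's low-protein diet alters expression in the fat of his sons, and whether the change resembles that in the fathers. No transgene or deletion was used, and each library came from 1 mouse. The replicates of F0 were 2 mice a group, so a p-value there rests on little spread, and whole tissue was sequenced, so that fewer cells of a type and less RNA per cell cannot be told apart.

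Leptin signals the size of the fat store to the brain, whereas adiponectin acts mainly on liver and muscle and favours insulin sensitivity. Mature adipocytes make both, and adipsin is an enzyme of the alternative complement pathway that was first known as a product of adipocytes. Resistin in mice also comes from adipocytes, while neuregulin 4 is made more strongly in brown than in white fat.

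Libraries held 6351075 to 10044546 exon reads, so that 3 reads, taken as the detection floor, equalled 0.300 to 0.468 CPM, that is counts per 1000000 exon reads after scaling between libraries. The floor covers counting error only, whereas SEs and intervals of fold changes include the spread between mice. The share of exon reads among reads on protein-coding genes was 62.1% to 63.7% in F0 libraries and 62.5% to 64.0% in CD offspring, but 51.6%, 58.2% and 59.3% in pLPD offspring, where the library of replicate 1 stood apart. Adipocyte markers were abundant in all groups. The 12 genes summed to 21559 to 22850 CPM in CD offspring and 22319 to 25595 CPM in pLPD offspring. In F0 they summed to 25326 to 26302 CPM with CD and 25746 to 32117 CPM with LPD. The 5 macrophage markers summed to 438 to 500 CPM in CD offspring and to 297 to 362 CPM in pLPD offspring, and the 5 epithelial markers to 10.1 to 14.0 and 1.53 to 4.88 CPM. In F0, the 6 brown and beige adipocyte markers summed to 121 to 252 CPM with CD and 626 to 744 CPM with LPD. Macrophage markers there summed to 497 to 507 and 426 to 446 CPM, and the 6 lymphocyte markers to 252 to 281 and 288 to 327 CPM. In the same F0 groups, the 6 skeletal muscle markers summed to 1158 to 1744 and 662 to 901 CPM, and the 6 adipose progenitor markers to 1488 to 1699.8 and 1157 to 1189 CPM. The part of these differences in the results below was not tested. Generation and age cannot be told apart between F0 and F1. Whether the libraries of F0 and F1 were prepared together is not stated in the sources used here.

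The stretches just upstream of 4 start sites are shown first, from genes that stand on opposite sides in F0. Both LPD mice lay below both CD mice for Retn, Cfd and Rbp4, and above them for Lep. Nampt, below, and Nrg4, above, were apart in F0 CPM too, but their windows are not printed. F0 groups did not overlap for 46.5% of all 14581 genes tested. The sequences are the 250 bases before the RefSeq start in build GRCm38.p6, 5′ to 3′ on the gene's own strand, with capitals marking any of 6 short motifs. Windows were found for 8 of the 9 genes, and the exception was Rarres2. The windows are chr6:29059971-29060220 for Lep, chr8:3655520-3655769 for Retn and chr10:79890603-79890852 for Cfd, all on the plus strand. That of Rbp4, 1 of 2 start sites, is chr19:38124812-38125061 on the minus strand.
Lep: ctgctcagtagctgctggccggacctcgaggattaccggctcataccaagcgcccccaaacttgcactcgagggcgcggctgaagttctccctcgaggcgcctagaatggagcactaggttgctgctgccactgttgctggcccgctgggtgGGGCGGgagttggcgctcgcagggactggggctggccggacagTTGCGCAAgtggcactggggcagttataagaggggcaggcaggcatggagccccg
Retn: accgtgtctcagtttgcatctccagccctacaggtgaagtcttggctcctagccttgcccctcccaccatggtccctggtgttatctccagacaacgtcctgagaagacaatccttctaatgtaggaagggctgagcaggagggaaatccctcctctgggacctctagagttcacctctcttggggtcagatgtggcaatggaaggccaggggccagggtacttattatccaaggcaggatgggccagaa
Cfd: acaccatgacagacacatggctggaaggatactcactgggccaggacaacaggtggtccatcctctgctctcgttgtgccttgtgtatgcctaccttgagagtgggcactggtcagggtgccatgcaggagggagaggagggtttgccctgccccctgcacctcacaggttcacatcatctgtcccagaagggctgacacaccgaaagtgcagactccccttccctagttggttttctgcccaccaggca
Rbp4: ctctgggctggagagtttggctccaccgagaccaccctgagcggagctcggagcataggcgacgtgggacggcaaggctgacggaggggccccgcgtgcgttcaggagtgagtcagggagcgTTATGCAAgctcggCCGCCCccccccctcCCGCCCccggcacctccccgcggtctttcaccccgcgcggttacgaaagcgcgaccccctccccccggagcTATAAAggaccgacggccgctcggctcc

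The motifs were searched on both strands, in the window of 250 bases, with the share of all 32851 RefSeq promoters that hold each: TATAAA (the TATA box, 12.4%), CCAAT (33.8%), GGGCGG (the GC box, 32.7%), CACGTG (the E-box, 6.02%), TTNNGCAA (1 form of the C/EBP site, 9.56%) and AGGTCA (a site bound by nuclear receptors, 14.0%). No pair of them overlapped in the printed windows. Lep holds a GC box and a C/EBP form, and the Rbp4 window holds a TATA box, 2 GC boxes and a C/EBP form. Retn and Cfd hold none of the 6. The windows that are not printed include those of Adipoq, with 3 matches to CCAAT, Nrg4, with 2 matches to AGGTCA, Nampt, with 5 GC boxes and 1 match to AGGTCA, and Apln, with 1 GC box. A match is a run of letters, not a bound site.

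The level of each gene relative to the others was read from RPKM, reads per kilobase of exon and 1000000 mapped reads, which corrects for gene length. In CD offspring the order was Cfd (2822 ± 568 RPKM, SD, n = 3), Adipoq (457), Retn (162), Lep (54.2), Rbp4 (48.6), Rarres2 (30.7), Nampt (14.3), Nrg4 (5.87) and Apln (1.82). The pLPD offspring had the same order of means, from 3190 RPKM for Cfd to 1.98 RPKM for Apln. Lep and Rbp4 were neighbours that did not differ beyond their spread: their ranges overlapped in both F1 groups, and Lep was the higher in 1 of 3 CD offspring and in 3 of 3 pLPD offspring (ratio of means 1.11 and 1.60). Rbp4 and Rarres2 overlapped in pLPD offspring.
Among 21943 protein-coding genes Cfd ranked between 2 and 11, and Adipoq between 17 and 30, in the 10 libraries. Cfd RPKM was 6.17 times that of Adipoq in CD offspring, 7.40 times in pLPD offspring and 5.04 times in F0 mice with CD. In F0 mice with LPD this ratio was 2.86, and Rarres2 (64.1 RPKM) stood above Rbp4 (39.4 RPKM), whereas in the other 3 groups Rbp4 had the higher mean. Retn RPKM was 3.51 times that of Lep in F0 CD, 1.32 times in F0 LPD and 2.98 and 2.64 times in the CD and pLPD offspring. These ratios are descriptions.

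**Figure D1:**
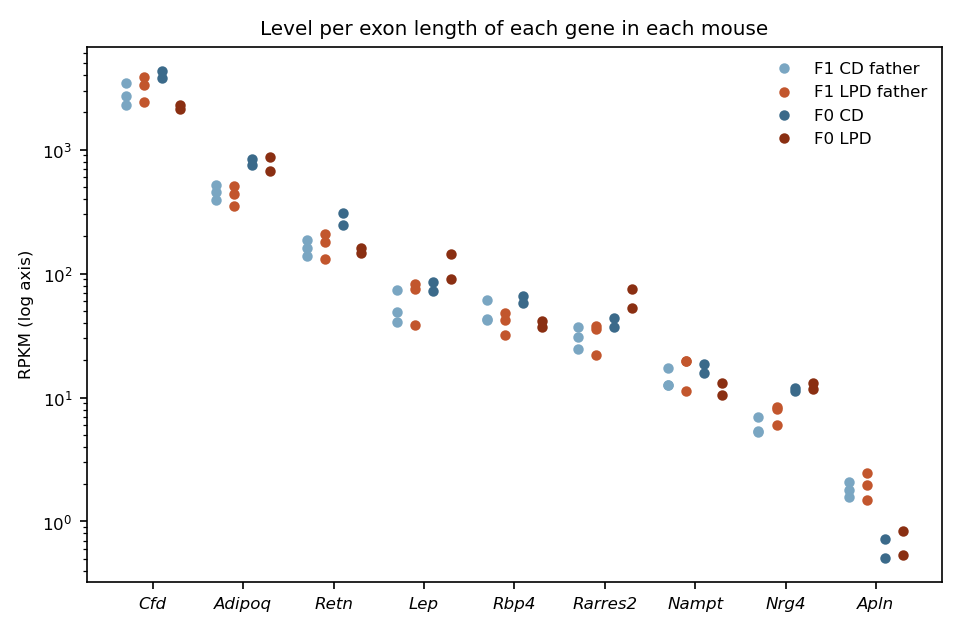
RPKM of the 9 genes in each of 10 mice on a log axis, ordered by the mean of CD offspring, with 1 point a mouse and colours for the groups. Cfd lies highest and Apln lowest in every group, and Rarres2 lies above Rbp4 in the 2 F0 mice with LPD.

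Leptin and adiponectin come first. Lep (ENSMUSG00000059201, mm10 chr6:29060220-29073877, plus strand) gave 548 and 454 CPM in the F0 mice with CD and 603 and 946 CPM in those with LPD. The LPD values lay above both CD values, with 1 of them far above the other. The difference was 0.63 on the log2 scale (SE 0.20, 95% interval 0.18 to 1.08), and it did not pass the test (adjusted p = 0.155 in edgeR's quasi-likelihood test). Without LPD replicate 2 the difference was 0.27 (adjusted p = 0.511), and without LPD replicate 1 it was 0.91 and was called (adjusted p = 0.0106).
In F1, Lep was at 291, 341 and 493 CPM with CD fathers and 326, 545 and 621 CPM with LPD fathers. The groups overlapped, and the log2 difference of 0.42 (SE 0.23, interval −0.079 to 0.91, adjusted p = 0.419) did not pass the test. It ranged from 0.24 in limma-trend to 1.10 with the exon share as a covariate, and passed in none of 12 other ways of processing. The share of Lep reads in introns was 7.92% to 9.86% in F0 CD and 4.95% to 5.58% in F0 LPD, and 6.33% to 8.94% over the F1 mice.

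Adipoq (ENSMUSG00000022878, mm10 chr16:23146536-23158028, plus strand) passed the test with neither diet (adjusted p = 0.996 in F0 and 0.832 in F1, edgeR). F0 values were 2006 and 2199 CPM with CD and 1849 and 2368 CPM with LPD, a log2 difference of 0.0042 (SE 0.16, interval −0.36 to 0.37). F1 values were 1168, 1310 and 1443 CPM with CD fathers and 1223, 1302 and 1575 CPM with LPD fathers, a difference of 0.073 (SE 0.12, interval −0.19 to 0.34). The LPD range enclosed the CD range in F0 and overlapped it in F1. The RPKM ratio of Adipoq to Lep was 8.89 and 11.8 in the F0 mice with CD and 7.45 and 6.08 in those with LPD, without overlap. In F1 it was 9.73, 9.34 and 7.11 with CD fathers and 9.10, 5.80 and 6.16 with LPD fathers, with overlap.

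**Figure D2:**
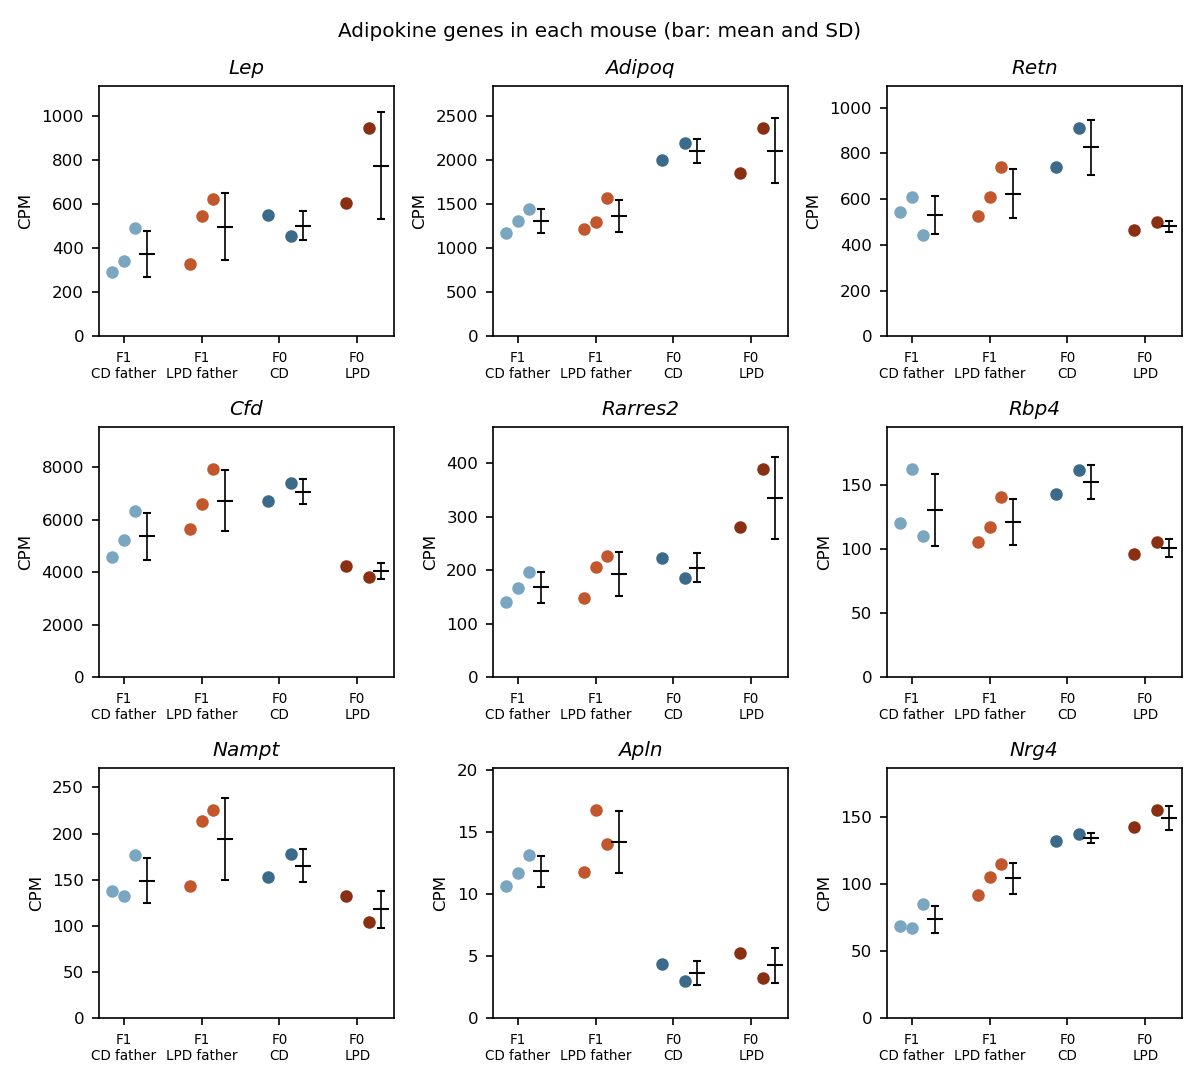
CPM of each of the 9 genes in each mouse (1 point a mouse), by generation and diet of the father (F1) or of the mouse itself (F0), with the group mean and SD beside the points. Retn, Cfd and Rbp4 are lower in both F0 mice with LPD than in both with CD. Nrg4 is the 1 gene of the 9 whose F1 groups do not overlap in CPM, against 20.1% of all genes tested. They overlap in RPKM.

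Retn, Cfd and Rbp4, respectively resistin, adipsin and the carrier of retinol in plasma, had lower counts in both F0 mice with LPD than in both with CD, and the first and last passed the test. Retn (ENSMUSG00000012705, mm10 chr8:3655770-3660110, plus strand) gave 742 and 912 CPM with CD and 465 and 498 CPM with LPD. The groups did not overlap, and the means were 827 ± 120 and 481 ± 23.4 CPM (SD, n = 2 each). The log2 difference was −0.78 (SE 0.13, interval −1.08 to −0.48, adjusted p = 0.0234 in edgeR's quasi-likelihood test).
Rbp4 (ENSMUSG00000024990, mm10 chr19:38116620-38125321, minus strand) gave 143 and 162 CPM with CD and 96.0 and 106 CPM with LPD. Again the groups were apart, with a log2 difference of −0.60 (SE 0.10, interval −0.82 to −0.37, adjusted p = 0.0222). Cfd (ENSMUSG00000061780, mm10 chr10:79890853-79892655, plus strand) gave 6733 and 7420 CPM with CD and 4260 and 3824 CPM with LPD. It showed the largest difference of the 3 genes, −0.81 (SE 0.17, interval −1.20 to −0.41), but just missed the threshold (adjusted p = 0.0503), and DESeq2 called it (adjusted p = 5.14e-08). It passed without either LPD library (adjusted p = 0.00629 and 0.0300) and not without either CD library (adjusted p = 0.249 and 0.456). Thus 2 of 9 genes were called lower, against 1.32% of all 14581 genes tested, and 0 were called higher, against 1.18% of all genes. At an unadjusted p under 0.05, 4 were lower and 2 higher, but all genes were not counted at that level. DESeq2 called 3 lower and 1 higher, against 2.56% of all genes in either direction. No gene of the 9 was called without the library of F0 CD replicate 2 (Retn −0.62, adjusted p = 0.164; Rbp4 −0.50, adjusted p = 0.0943). The Rbp4 call was also lost without LPD replicate 1 (−0.53, adjusted p = 0.0640), without LPD replicate 2 (−0.67, adjusted p = 0.0553) and in a fit of all 4 groups (adjusted p = 0.128). Neither was any called by limma-trend on log2(RPKM + 0.1) or log2(RPKM + 1). With 2 mice against 2 an exact permutation test of 1 gene cannot go below p = 0.333.

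In F1 the same 3 genes stood differently. Retn was at 543, 607 and 443 CPM with CD fathers and 527, 607 and 738 CPM with LPD fathers. Cfd was at 4573, 5214 and 6342 CPM and at 5654, 6607 and 7948 CPM, and Rbp4 at 120, 163 and 110 CPM and at 105, 118 and 141 CPM. All 3 pairs of groups overlapped, and no difference passed the test (Retn 0.24, SE 0.14, adjusted p = 0.451; Cfd 0.33, SE 0.16, adjusted p = 0.346; Rbp4 −0.10, SE 0.15, adjusted p = 0.791).
The difference between the diet effects of F1 and F0 was tested itself in 1 fit of all 10 libraries. It reached 1.13 for Cfd (SE 0.23, adjusted p = 0.0381) and 1.01 for Retn (SE 0.22, adjusted p = 0.0454). These were 2 of the 9 genes, against 1.25% of all 15111 genes. For Rbp4 it was 0.48 (SE 0.22, adjusted p = 0.388). Both calls were kept without F1 CD replicate 3 or without pLPD replicate 1, and lost when any of the other 8 libraries was left out, with values from 0.86 to 1.17 for Retn and 0.998 to 1.22 for Cfd. They were also lost in limma-trend and when exon and intron reads were added up.

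For chemerin and Nampt the F0 groups were apart in opposite order, and neither passed the test. Rarres2 (ENSMUSG00000009281, mm10 chr6:48569696-48572789, minus strand), the precursor of the chemoattractant chemerin, gave 224 and 186 CPM with CD and 281 and 390 CPM with LPD. The groups were apart, and the log2 difference of 0.71 (SE 0.16, interval 0.35 to 1.07) just missed the threshold (adjusted p = 0.0572). It was 0.46 (adjusted p = 0.200) without LPD replicate 2 and 0.93, called (adjusted p = 0.01005), without LPD replicate 1, and DESeq2 called it. Its F1 values, 140, 168 and 197 CPM against 148, 206 and 226 CPM, overlapped. Rarres2 shares 1027 bases with Lrrc61 on the opposite strand, and 84.2% to 93.1% of its exon reads matched it uniquely.
Nampt (ENSMUSG00000020572, mm10 chr12:32819545-32853349, plus strand) encodes the rate-limiting enzyme of NAD salvage, which is also released by fat under the name visfatin. It gave 153 and 178 CPM with CD and 132 and 104 CPM with LPD in F0, and 138, 132 and 177 CPM against 144, 214 and 226 CPM in F1. The F0 groups were apart and the F1 groups overlapped. The differences were −0.48 (SE 0.13, adjusted p = 0.101) in F0 and 0.40 (SE 0.16, adjusted p = 0.276) in F1, and the difference between them, 0.87 (SE 0.26, adjusted p = 0.134), did not pass either. That last difference passed in 3 of 11 other ways of processing: DESeq2, no filter on low counts, and the exon share as a covariate. It was also called without F1 CD replicate 3 or without pLPD replicate 1. The F0 difference was called without LPD replicate 1 (−0.67, adjusted p = 0.0341), and was −0.32 (adjusted p = 0.386) without LPD replicate 2. In F1 it ranged from 0.20 in limma-trend to 0.88 with the exon share as a covariate. The span of the gene shares 5033 bases with that of Gdap10, a noncoding RNA on the same strand. Overlap of their exons was not examined, and 100% of Nampt exon reads matched it uniquely.

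Apelin and neuregulin 4 act on heart, vessels and brown fat or liver. Apln (ENSMUSG00000037010, mm10 chrX:48025146-48034853, minus strand) rested on 28 to 124 reads and was at 4.37 and 2.997 CPM with CD and 5.25 and 3.28 CPM with LPD in F0, and at 10.7, 11.7 and 13.2 CPM against 11.8, 16.8 and 14.0 CPM in F1. Both pairs of groups overlapped, with differences of 0.23 (SE 0.33) and 0.28 (SE 0.18).
Nrg4 (ENSMUSG00000032311, mm10 chr9:55220222-55326844, minus strand) was the 1 gene whose F1 groups did not overlap in CPM, against 20.1% of all genes. It gave 68.9, 66.9 and 85.3 CPM with CD fathers and 92.0, 105 and 115 CPM with LPD fathers, that is 73.7 ± 10.1 and 104 ± 11.6 CPM (SD, n = 3 each). The log2 difference of 0.51 (SE 0.12, interval 0.26 to 0.76) did not pass the test (adjusted p = 0.0611), and the exact permutation p was 0.1, the smallest that 3 against 3 allow. It passed in 6 of 12 other ways of processing (0.30 to 0.72, adjusted p from 0.00127 to 0.481). Of the 6 libraries left out in turn, the call came with the loss of CD replicate 3 (0.63, adjusted p = 0.0105); without pLPD replicate 1, whose exon share stood apart, the difference was 0.59 (adjusted p = 0.0701). In F0, Nrg4 was at 132 and 137 CPM with CD and 143 and 155 CPM with LPD, a difference of 0.15 (SE 0.090, adjusted p = 0.491). The gene spans 39 exons and overlaps Fbxo22 on the opposite strand, and 58.7% to 65.2% of its exon reads matched it uniquely. Introns held 69.4% to 75.9% of its reads in F1 and 69.6% to 71.2% in F0 CD, but 62.1% to 62.3% in F0 LPD.

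Over the whole set, 0 of 9 genes were called by edgeR between the F1 groups, against 1.17% of all 14049 genes. At an unadjusted p under 0.05 there were 2, Nampt and Nrg4, but all genes were not counted at that level. DESeq2 called 1, Nrg4, against 2.67% of all genes. The F1 difference was above 0 for 8 of 9 genes, with a median of 0.28 beside 0.0074 over all genes tested. Without pLPD replicate 1 edgeR called 0 of the 9 as well. In F0, 5 differences lay above and 4 below 0, with a median of 0.0042 beside 0.00035 over all genes. The groups did not overlap in CPM for 7 of 9 genes in F0, all but Adipoq and Apln, against 46.5% of all genes. In RPKM the F0 groups of Nrg4 overlapped, at 11.3 and 12.0 with CD and 11.7 and 13.1 with LPD.

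**Figure D3:**
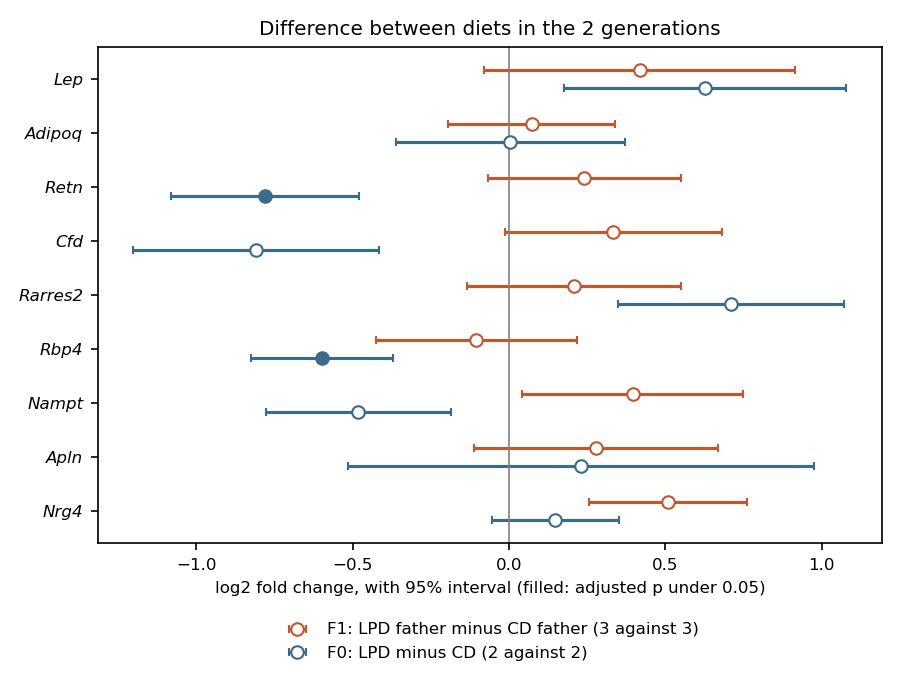
log2 fold change of LPD over CD for each gene in F1 (diet of the father) and F0 (own diet), with 95% intervals, where a filled point has an adjusted p under 0.05 in edgeR. Retn and Rbp4 in F0 are filled, and for Retn, Cfd and Nampt the F0 point lies below 0 and the F1 point above it.

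Controls alone were compared between the generations, which differ in age (5 weeks against 10 to 12 weeks). Of the 9 genes, 4 were called, against 18.9% of all genes, and the groups of 5 did not overlap, against 49.9% of all genes. Apln was higher in the younger mice by 1.69 on the log2 scale (SE 0.26, adjusted p = 0.000678), at 10.7 to 13.2 CPM against 2.997 and 4.37 CPM. The genes called lower in the younger mice were Nrg4 (−0.87, SE 0.12, adjusted p = 0.000312), Adipoq (−0.69, SE 0.14, adjusted p = 0.0051) and Retn (−0.64, SE 0.15, adjusted p = 0.0120). Cfd (−0.40, adjusted p = 0.111), Lep (−0.42, adjusted p = 0.297), Rarres2 (−0.28), Rbp4 (−0.22) and Nampt (−0.15) were not called. From junction reads alone the calls of Adipoq (−0.25, adjusted p = 0.219) and Retn (−0.33, adjusted p = 0.148) were lost, as they were without F0 CD replicate 2 (adjusted p = 0.0725 and 0.174). Lep was called from junction reads, with −1.12 (adjusted p = 0.000467), and without a filter on low counts. Cfd was called by DESeq2, without a filter and without F1 CD replicate 3 (adjusted p = 0.0329), and Rarres2 without a filter. In the same mice the skeletal muscle markers summed to 75.7 to 152 CPM in F1 CD and 1158 to 1744 CPM in F0 CD, and brown and beige markers to 1161 to 1733 and 121 to 252 CPM.

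Within groups, some of the 9 genes varied together. After subtracting each group's mean of log2(CPM + 0.5), the correlation (r) over the 10 mice was 0.985 for Lep and Rarres2, 0.914 for Retn and Rbp4, 0.870 for Lep and Nrg4, 0.869 for Cfd and Nampt and 0.820 for Lep and Adipoq. The lowest was −0.276, for Retn and Apln. These are descriptions: the points share libraries, scaling and, within a pair of F0 mice, are mirror images by construction. Over 9808 protein-coding genes that averaged 10 CPM or more, those most like Lep in this measure were Rarres2, Tjap1 (0.979) and Tmtc1 (r = 0.9754), those most like Adipoq were St13 (0.994), Tmem175 (0.987) and Pdxdc1 (0.979), and those most like Nrg4 were C1s1 (0.986), Map3k6 (0.982) and Wdr18 (0.974).

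**Figure D4:**
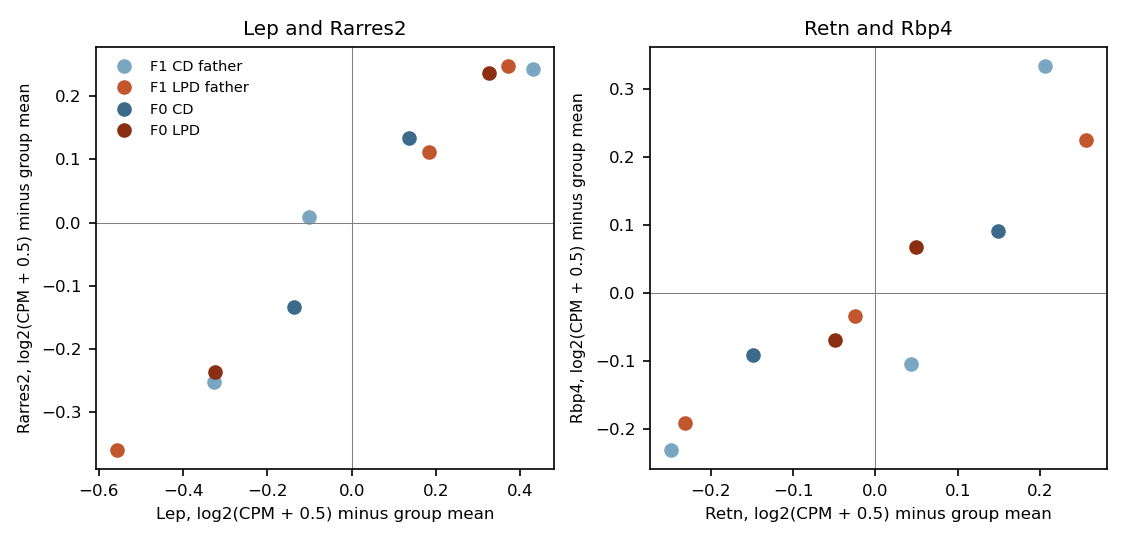
Deviation of each of 10 mice from its group's mean of log2(CPM + 0.5) for Lep against Rarres2 and for Retn against Rbp4, with 1 point a mouse and colours for the groups. Points rise together in both panels (0.985 and 0.914).

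Of 13 genes for receptors of these proteins, 11 were tested: 0 were called by edgeR in F1 (0 at an unadjusted p under 0.05, DESeq2 0) and 0 in F0 (3 at an unadjusted p under 0.05, DESeq2 1). Over all genes edgeR called 1.17% in F1 and 2.50% in F0, and DESeq2 2.67% and 2.56%. All genes were not counted at an unadjusted p under 0.05. limma-trend called 0 in both. Their medians were −0.056 in F1 and 0.052 in F0, beside 0.0074 and 0.00035 over all genes. Adipor2, a receptor of adiponectin, came nearest: it gave 602 and 616 CPM with CD and 835 and 1066 CPM with LPD in F0, without overlap (0.64, SE 0.14, adjusted p = 0.0522). It passed in 7 of 12 other ways of processing, DESeq2 among them (adjusted p = 0.000612), was 0.26 (adjusted p = 0.417) with intron reads added, and was called without LPD replicate 1 (0.80, adjusted p = 0.0066). Aplnr, the receptor of apelin, differed by 0.65 (SE 0.23, adjusted p = 0.206) in F0. Lepr, the leptin receptor, lay at 11.1 ± 1.91 CPM in pLPD and 13.7 ± 2.46 CPM in CD offspring (SD, n = 3), with a difference of −0.29 (SE 0.19, adjusted p = 0.522). Erbb4, a receptor of neuregulins, averaged 1.59 and 2.27 CPM in CD and pLPD offspring and 3.76 and 3.02 CPM in F0 mice with CD and LPD. The other tested receptors (Adipor1, Cdh13, Cap1, Cmklr1, Gpr1, Ccrl2 and Erbb3) had F1 differences of −0.30 to 0.45 and F0 differences of −0.66 to 0.65. Stra6 and Stra6l, for retinol uptake, did not pass the filter on low counts.

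Of 5 genes of the alternative complement pathway, in which adipsin cleaves factor B, edgeR called 0 of 5 tested in F1 (1 at an unadjusted p under 0.05, DESeq2 1, limma-trend 0) and 0 of 4 tested in F0 (2 at an unadjusted p under 0.05, DESeq2 1, limma-trend 0). Their medians were −0.14 in F1 and −0.014 in F0, beside 0.0074 and 0.00035 over all genes. Over all genes edgeR called 1.17% in F1 and 2.50% in F0.
A list of genes of NAD metabolism other than Nampt held Nmnat1, Nmnat2, Nmnat3, Nmrk1, Naprt, Nnmt, Cd38 and Sirt1. Of these, 0 of 7 tested in F1 and 0 of 8 in F0 were called by edgeR, against 1.17% and 2.50% of all genes. DESeq2 and limma-trend called 0. At an unadjusted p under 0.05 in edgeR there were 0 in F1 and 1 in F0, Cd38 (0.39). None of 5 genes for the folding and assembly of adiponectin was called in F1 or F0 by edgeR, DESeq2 or limma-trend, and 0 had an unadjusted p under 0.05. At these shares of all genes, lists this short would mostly hold 0 calls, so these counts do not set the lists apart.

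A further list held other secreted proteins of fat. In F1, 2 of 21 tested were lower in pLPD offspring, against 1.02% of all genes, and 0 higher, against 0.142%, with a list median of −0.32 beside 0.0074 over all genes. Retnla, a resistin-like protein of macrophages and adipose tissue, gave 13.3, 13.6 and 18.7 CPM against 36.2, 35.4 and 72.2 CPM (−1.65, SE 0.27, adjusted p = 0.0196). C1qtnf12, of the family of adiponectin paralogs, was at 40.7 ± 0.556 against 58.7 ± 6.78 CPM (SD, n = 3; −0.52, SE 0.10, adjusted p = 0.0436). The Retnla call was lost without pLPD replicate 1 (−1.56, adjusted p = 0.0774) or replicate 2 (−1.58, adjusted p = 0.115), and the C1qtnf12 call without any library but CD replicate 3 (adjusted p from 0.0685 to 0.170).
In F0, 2 of 22 were higher and 1 lower with LPD, against 1.18% and 1.32% of all genes. Sfrp5, a Wnt inhibitor, gave 97.4 and 190 CPM with LPD against 19.8 and 17.7 CPM with CD (2.93, SE 0.28, adjusted p = 0.00373). Angptl4, an inhibitor of lipoprotein lipase, was higher by 1.02 (SE 0.15, adjusted p = 0.0179), and Agt, angiotensinogen, was lower by −0.97 (SE 0.17, adjusted p = 0.0258). Sfrp5 was called without any 1 of the 4 libraries. The Agt call was kept only without CD replicate 1 (adjusted p from 0.0609 to 0.106 without another), and that of Angptl4 was lost without CD replicate 1 (adjusted p = 0.0634).

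Of 12 regulators of adipokine genes, 1 was called in F1, against 1.17% of all genes, and in F0 1 was called higher and 1 lower, against 1.18% and 1.32%. Ppargc1a, a coactivator of nuclear receptors, was 46.7, 27.0 and 32.9 CPM in pLPD offspring against 18.9, 16.2 and 16.5 CPM (1.05, SE 0.18, adjusted p = 0.0260), without overlap. It was lost without CD replicate 1 or 2 or pLPD replicate 1 (adjusted p from 0.0541 to 0.125). In F0, Cebpb, a C/EBP family factor, was at 119 and 113 CPM with LPD against 80.3 and 78.3 CPM with CD (0.55, SE 0.085, adjusted p = 0.0186). Klf15 was at 53.7 and 45.5 against 72.1 and 102 CPM (−0.81, SE 0.16, adjusted p = 0.0400). The Cebpb call was kept only without LPD replicate 1, and the Klf15 call was lost without CD replicate 2 (adjusted p = 0.0969) or LPD replicate 2 (adjusted p = 0.190).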

How the data were processed

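The deposited count files hold, per mouse and gene, total exon reads, uniquely matching, intron and junction reads, and RPKM as the authors computed them, after mapping to mm10 (submitters' processing notes). The strand setting and annotation release are not given in the sources used here. Exon read counts were tested with edgeR 4.0.16 (R 4.3.3; filterByExpr, TMM, quasi-likelihood F test, Benjamini-Hochberg threshold 0.05), separately for F1 and F0; the interaction and the comparison of controls used 1 fit of all 10 libraries. Fold changes are log2, with SE from the F statistic, and CPM were scaled by TMM over the 10 libraries. RPKM served for levels between genes, for limma-trend, and beside CPM for Nrg4. DESeq2 1.42.0, limma 3.58.1 and other filters, reads and samples were alternatives. The test was checked only on simulated counts with the same spread between mice for every gene. That check does not measure its errors in these data. The genes named were the 9, every gene of the pathway lists past the threshold in F1, F0 or the interaction, the receptors, and the 3 genes most like Lep, Adipoq and Nrg4. These genes and lists were chosen with earlier results of these data known. Promoters came from RefSeq. Replicate numbers were used as names, and as pairs within a generation only in the fits with a replicate block. A few genes of the lists are not reported here and were left out of the list counts.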

Additional observations from a re-analysis of the deposited data

Results flagged for a closer look

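For 6 genes among the adipokines and the lists of related genes, the diet effect differed between the generations, against 1.25% of all 15111 genes tested. They were 2 of 9 adipokines, 1 of 22 other secreted proteins tested, and of 12 regulators 2 above 0 and 1 below 0. None was called of 11 receptors, 5 complement genes, 8 genes of NAD metabolism or 5 genes for adiponectin assembly. The test was of the difference itself (F1 effect minus F0 effect, log2, in edgeR's fit of all 10 libraries), and the values are given without an explanation. The lists of cell type markers, not counted in the 6, held further calls: 2 brown and beige markers and 1 macrophage marker below 0, and 1 skeletal muscle marker above 0. For the adipokines the calls were Retn (1.01, adjusted p = 0.0454) and Cfd (1.13, adjusted p = 0.0381). Among the secreted proteins the difference was −3.61 for Sfrp5 (adjusted p = 0.0085), which was higher with LPD in F0. Among the regulators it was −0.98 for Cebpb (adjusted p = 0.0094), 1.28 for Klf15 (adjusted p = 0.0252) and 1.44 for Ppargc1a (adjusted p = 0.0410). Not all of these calls held when 1 library was left out: that of Sfrp5 was kept in 10 of 10 cases and that of Cebpb in 9, lost without F0 CD replicate 2. That of Klf15 was kept in 6, lost without F0 CD replicate 2, F0 LPD replicate 2 or F1 CD replicate 1 or 2. That of Ppargc1a was kept in 3, without F1 CD replicate 3, pLPD replicate 1 or pLPD replicate 2, and the value was 0.30 (adjusted p = 0.545) with intron reads added. Those of Retn and Cfd were kept in 2. Cebpb had 186 ± 14.3 CPM in CD and 139 ± 15.4 CPM in pLPD offspring (SD, n = 3), and 79.3 ± 1.37 and 116 ± 4.68 CPM in F0 (SD, n = 2), so its groups did not overlap in either generation and lay in opposite order. Groups of 2 and 3 mice were too small to look for a single mouse far from the others.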

How the results depend on the processing

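Between the F1 groups edgeR called 0 of 9 members among 164 genes. The call of 1 member came with DESeq2 (375 genes), a fit of all 4 groups (339), the replicate block (260), unique reads, and exon and intron reads together, 2 without a filter (798), and 11 genes with the exon share as covariate. In F0 it called 2 among 364: 4 with DESeq2, unique reads or junction reads (164 genes, a choice made after seeing the data), 6 without a filter (1343) or with the block (1391), 1 with all 4 groups (175), 5 with the covariate (1045) and 0 with limma-trend (82 and 47). The interaction called 2 among 189. It called 3 members, Nampt being the added one, with DESeq2 (353 genes) and with the covariate (158). It called 4 members without a filter (890), and with introns 1, which was Nrg4 instead of Retn or Cfd. It called 0 members with limma-trend (74 and 109), and 106 genes from junction reads. Between controls 4 were called among 2857: 7 without a filter and 2 from junction reads (1466). Leaving out 1 mouse gave 0 to 1 members among 18 to 510 genes in F1, 0 to 5 among 107 to 475 in F0, 0 to 3 among 19 to 395 for the interaction and 2 to 5 among 793 to 3030 between controls. Where this left 1 mouse in a group, it was assumed to vary like the other groups.

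Sign changes concerned mostly genes near 0. In F1 they were Cdh13 (−0.072 with introns, −0.010 and −0.0063 in the limma-trend fits), Adipoq (−0.092 in both), Rbp4 (0.27) and Cmklr1 (0.084) with the covariate, and Cap1 (0.084, junctions). In F0 they were Adipoq (−0.00064 with at least 10 reads, −0.0048 with the block, −0.062 in both limma-trend fits, −0.052 with the covariate), Nrg4 (−0.19) and Cmklr1 (0.15) with introns, Cap1 (−0.0056 and −0.0054, limma-trend) and Cmklr1 (0.0070, junctions). For the interaction they were Apln (−0.029 with introns, −0.027 in limma-trend), Adipoq (−0.030 in both limma-trend fits, −0.020 from junctions), Lep (0.51, covariate) and Nrg4 (−0.016, junctions). Without 1 mouse the F1 ranges were −0.043 to 0.15 (Adipoq), −0.23 to 0.084 (Rbp4), −0.18 to 0.19 (Cmklr1) and −0.11 to 1.01 (Gpr1). In F0 they were −0.18 to 0.17 (Adipoq), −0.16 to 0.52 (Apln), −0.028 to 0.20 (Cdh13) and −0.21 to 0.17 (Cmklr1). For the interaction they were −0.11 to 0.25 (Adipoq), −0.25 to 0.43 (Apln) and −0.51 to 0.14 (Lep).

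The replicate block is a choice of analysis only: numbers did not pair mice, with correlations of same-numbered mice of 0.039, −0.00016 and 0.0072 in F1 and 0.049 in F0, where it leaves 1 residual degree of freedom. The cause of these changes was not tested. Depth limits Apln most, with 28 reads in its lowest library.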
